A study of Mus musculus with 16 samples.

Results

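The 6 Bcl11a CUT&Tag peak lists from WT-iMOS MPP3 cells were compared, 3 labelled T2 and 3 labelled T1, out of 16 libraries of mouse bone marrow progenitors in the series. They were taken by their titles and genotype labels and held 28438 of the 131939 peaks in the series. Both groups were MPP3 cells sorted from bone marrow and both carried WTiMOS in the genotype label, joined to T2 in one group and to T1 in the other, and the titles carried 3m. The labels explain neither iMOS, T2, T1 nor 3m, and they do not say whether libraries came from separate animals, so the p-values below measure only the spread between these libraries. The peak names in the deposited lists began with BMG in the T2 libraries and with BWG in the T1 libraries, which the labels do not explain either. Spi1 was profiled in 6 WT-iMOS libraries, 3 T2 and 3 T1, and these lists were used as a separate readout.

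Bcl11a is a zinc finger transcription factor best known for silencing fetal globin genes in red cell precursors and for its need in lymphoid and stem cell development. It recruits corepressor complexes such as NuRD to DNA and binds the short sequence TGACCA. MPP3 cells are multipotent progenitors biased towards granulocytes and monocytes, and Spi1 (PU.1) is the ETS factor that drives those lineages. In CUT&Tag, an antibody brings a transposase to the factor on chromatin, and the cut fragments are sequenced, so a peak marks a stretch with many cuts and says nothing of the expression of a gene beside it. Peaks at loci were therefore used to check the cell type only in part. Fcgr3, a receptor carried by myeloid progenitors, had a Bcl11a peak in 3 of 3 T2 and 3 of 3 T1 lists and Flt3, a cytokine receptor of early progenitors, in 2 T2 and 3 T1 lists. Kit had one in 0 T2 and 2 T1 lists and Ly6a in 1 of each, while the progenitor markers Cd48, Slamf1 and Cd34 had none in either group. Hemgn, Cd79a, Cd3e, Ltf and Ngp, markers of red cells, B cells, T cells and neutrophils, also had none in either group. Itga2b and Pf4, markers of megakaryocytes, had peaks in 3 and 1 T2 lists and in 2 and 1 T1 lists.

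T1 replicates 2 and 3 had the highest shares of peaks at promoters, 31.7% and 33.5%. T1 replicate 1 had 15.6%, and T2 replicates 1, 2 and 3 had 7.26%, 16.4% and 15.1%. Of the merged regions that every T2 list and no T1 list held, 2 of 65 (3.08%) overlapped the 250 bases upstream of a transcription start, against 214 of 433 (49.4%) of the regions that every T1 list and no T2 list held. The share was 14.9% of regions in all 6 lists and 23.2% of every region. With T1 replicate 1 as the only T1 library, 18.99% of the regions that it held and no T2 list held were at promoters. The share of 49.4% was thus not reached without T1 replicates 2 and 3. The T1-only rule then asks for 1 list in place of 3, so these shares do not compare directly. The T2-only regions had to be absent from T1 replicates 2 and 3, the lists richest in promoter peaks. They also had to be present in T2 replicate 1, the list poorest in promoter peaks. Both rules favour a low share, so the 3.08% is no separate result, and the part of each rule was not tested. The promoters under the strongest one-sided and shared regions are shown to let their base composition be read. The sequences are RefSeq promoters on GRCm38.p6, the same assembly as mm10, given from the 5′ end on the strand of the gene. Capitals mark the motifs searched on both strands, namely TGACCA for Bcl11a, GGAAGT for ETS factors, TGTGGT for Runx factors, CCAAT for NF-Y and GGGCGG for Sp and Klf factors. TGACCA and CCAAT share letters and can overlap. Cers4, a ceramide synthase, had a region in T2 lists only. Actr3, an actin nucleator subunit, Ilvbl, a lyase-like enzyme, Trim41, a ubiquitin ligase, and Pcbp2, a poly(C) RNA-binding protein, had regions in T1 lists only. Nt5dc3, a nucleotidase-like gene, had a region in all 6 lists.
Cers4, chr8:4493155-4493404, plus strand: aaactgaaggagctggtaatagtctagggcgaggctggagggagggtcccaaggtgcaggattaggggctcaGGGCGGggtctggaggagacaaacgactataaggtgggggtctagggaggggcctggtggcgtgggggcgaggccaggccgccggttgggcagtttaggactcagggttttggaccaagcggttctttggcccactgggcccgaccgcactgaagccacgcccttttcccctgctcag
Actr3, chr1:125435728-125435977, minus strand: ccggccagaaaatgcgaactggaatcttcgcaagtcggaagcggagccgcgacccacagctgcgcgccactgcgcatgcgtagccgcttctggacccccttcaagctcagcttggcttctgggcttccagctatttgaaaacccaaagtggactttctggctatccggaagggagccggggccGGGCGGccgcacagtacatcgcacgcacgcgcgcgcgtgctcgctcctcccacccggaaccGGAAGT
Ilvbl, chr10:78574741-78574990, plus strand: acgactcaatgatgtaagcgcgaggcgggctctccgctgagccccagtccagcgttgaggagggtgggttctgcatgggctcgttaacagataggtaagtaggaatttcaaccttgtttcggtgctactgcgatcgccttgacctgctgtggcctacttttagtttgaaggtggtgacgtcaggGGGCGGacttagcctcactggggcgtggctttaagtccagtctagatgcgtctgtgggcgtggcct
Trim41, chr11:48817392-48817641, minus strand: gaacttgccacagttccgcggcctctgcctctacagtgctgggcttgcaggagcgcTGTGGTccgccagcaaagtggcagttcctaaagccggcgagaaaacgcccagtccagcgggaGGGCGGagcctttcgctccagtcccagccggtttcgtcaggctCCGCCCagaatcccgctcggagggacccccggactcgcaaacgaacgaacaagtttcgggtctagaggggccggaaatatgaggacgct
Pcbp2, chr15:102470289-102470538, plus strand: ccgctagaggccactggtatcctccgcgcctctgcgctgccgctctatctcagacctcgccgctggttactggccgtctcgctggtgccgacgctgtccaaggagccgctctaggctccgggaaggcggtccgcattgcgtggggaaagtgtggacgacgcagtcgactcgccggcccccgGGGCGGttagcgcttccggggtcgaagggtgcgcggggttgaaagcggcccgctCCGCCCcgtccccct
Nt5dc3, chr10:86778755-86779004, plus strand: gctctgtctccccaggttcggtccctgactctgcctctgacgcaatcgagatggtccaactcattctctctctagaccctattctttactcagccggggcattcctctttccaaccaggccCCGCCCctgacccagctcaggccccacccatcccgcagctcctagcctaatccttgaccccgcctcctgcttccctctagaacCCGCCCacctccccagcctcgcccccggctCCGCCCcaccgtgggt

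In Cers4 the region chr8:4493066-4493424, in 3 of 3 T2 and 0 of 3 T1 lists, covered all 250 of these bases, which had a GC content of 63.2% and 11 CpG dinucleotides. Its rank was moderate, at the 32.8th, 48.7th and 59.8th percentile of the T2 lists, where 100 is the strongest peak of a list by the authors' −log10 p. The T1-only regions at Trim41 (chr11:48816419-48817661) and Pcbp2 (chr15:102470268-102470988) also covered the whole window, with 22 and 32 CpG dinucleotides. At Actr3 the region chr1:125435054-125435926 covered 199 of the 250 bases and at Ilvbl the region chr10:78574342-78574974 covered 234. The shared region at Nt5dc3, chr10:86778274-86778977, covered 223 bases of a window with 12 CpG dinucleotides. Each of the 6 windows held GGGCGG on one strand or the other, and TGACCA was in none of them, which says nothing of Bcl11a binding outside these bases.

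Over all windows that T1-only regions touched, 295 in number, the median GC content was 64.8% with a median of 20 CpG dinucleotides, and the 191 windows touched by regions of all 6 lists had medians of 64% and 19. All 32536 promoter windows of the table had medians of 52.4% and 6. GGGCGG was in 74.9% of the T1-only windows, 75.4% of the windows shared by all 6 lists and 33.0% of all windows. GGAAGT was in 24.1%, 22.0% and 19.8% of these sets in the same order, and CCAAT in 39.0%, 45.5% and 33.8%. TGACCA was in 7.46% of the T1-only windows, 14.1% of the shared windows and 11.4% of all windows, and TGTGGT in 7.46%, 12.04% and 14.0%. The T1-only promoters thus resembled the shared ones in GC content and GGGCGG, and TGACCA was not more frequent in them than over all promoters. The T2-only regions touched 2 windows, too few to describe.

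The T2 lists held fewer peaks on average, but the groups overlapped. On the assembled chromosomes the T2 lists held 4634, 2605 and 3168 peaks in replicates 1, 2 and 3, and the T1 lists held 4150, 5845 and 7270. T2 replicate 1 was longer than T1 replicate 1, and T1 replicates 2 and 3 were longer than every T2 list. The means were 3469 ± 1047 peaks in T2 and 5755 ± 1562 in T1 (SD, n = 3 each), a ratio of 0.603 (exact permutation test, two-sided, p = 0.2, 0.24 after Benjamini-Hochberg adjustment over the 6 measures of this kind). With 3 libraries against 3 the smallest two-sided p is 0.1, so no measure per library could pass 0.05. The peaks covered 1.77, 1.07 and 1.31 Mb in T2 and 1.73, 2.54 and 3.27 Mb in T1 (exact permutation p = 0.2, adjusted 0.24). Sequencing depth is unknown, since the lists hold peaks and not reads, and its part in the length of a list was not tested.

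Peak widths were close. The median width was 320, 353 and 356 bp in the T2 lists and 350, 373 and 386 bp in the T1 lists, with means of 343 ± 19.98 and 370 ± 18.2 bp (SD, n = 3 each; exact permutation p = 0.3). T1 replicate 1 lay within the T2 range. When each list was reduced to its strongest 2605 peaks by −log10 p, the length of the shortest list, the medians were 383, 353 and 374 bp in T2 and 398, 468 and 514 bp in T1, and the groups no longer overlapped (exact permutation p = 0.1). The cut left T2 replicate 2 whole. The weaker peaks it removed from T1 replicates 1, 2 and 3 were narrower, with medians of 293, 318 and 335 bp. The part of the cut in this separation was not tested.

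T1 replicates 2 and 3 had the highest near-gene shares of the 6 lists. A peak counted as near a gene when its summit lay within 1 kb of the start or end of a protein-coding gene. That held for 10.6%, 21.0% and 20.1% of peaks in T2 replicates 1, 2 and 3, and for 20.7%, 38.5% and 40.7% in T1 replicates 1, 2 and 3. T1 replicate 1 lay between T2 replicates 2 and 3, and T2 replicate 1 was the lowest of the 6. The means were 17.2 ± 5.80% in T2 and 33.3 ± 10.97% in T1 (SD, n = 3 each; exact permutation p = 0.2, adjusted 0.24). Set against T1 replicate 1 alone, the T2 mean was lower by a difference of -3.45 percentage points, and with T2 replicate 1 also left out the difference was -0.119. The gap in near-gene share thus rested on T1 replicates 2 and 3 on one side and T2 replicate 1 on the other.

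**Figure D1:**
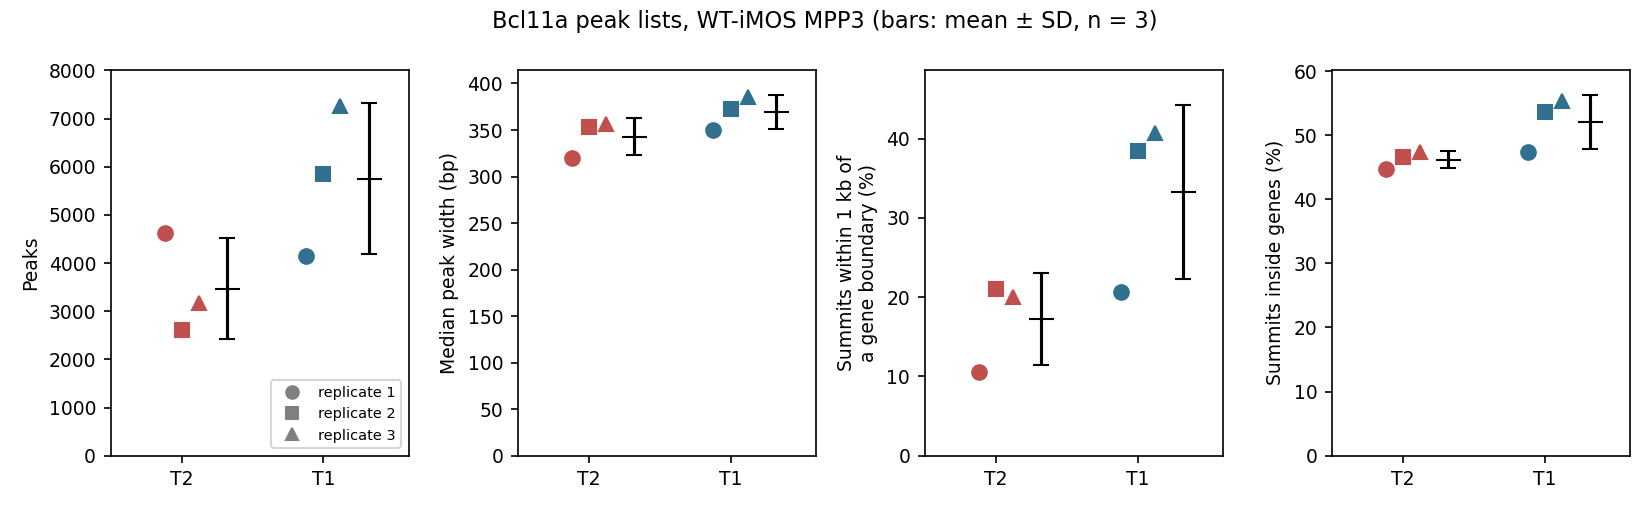
Peaks on assembled chromosomes, median peak width in bp, share of summits within 1 kb of a gene boundary in percent and share of summits inside genes in percent, for the 3 T2 and the 3 T1 Bcl11a lists, with marker shapes for replicates and bars for the mean ± SD. T1 replicates 2 and 3 stand at 38.5% and 40.7% near genes, while T1 replicate 1 stands at 20.7%, beside T2 replicates 2 and 3.

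T1 replicates 2 and 3 were also at the gene-rich end of the other measures of position. Summits lay inside a gene in 44.8%, 46.5% and 47.3169% of T2 peaks and in 47.3253%, 53.6% and 55.3% of T1 peaks. The groups did not overlap (exact permutation p = 0.1, adjusted 0.24), but T2 replicate 3 and T1 replicate 1 were almost equal. The median distance from a summit to the nearest gene boundary was 25920, 15011 and 17290.5 bp in T2 and 15532.5, 4779 and 3571.5 bp in T1 (exact permutation p = 0.2, adjusted 0.24). Promoter windows of 250 bases were touched by 7.26%, 16.4% and 15.1% of T2 peaks and by 15.6%, 31.7% and 33.5% of T1 peaks. Chromosome 18 was not counted in the promoter shares. The Spi1 lists ranged from 13.0% to 18.9%, below T1 replicates 2 and 3 of Bcl11a and above T2 replicate 1.

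The near-gene share also differed between lists among peaks of the same rank. Among the strongest 500 peaks it was 2.6%, 6.8% and 5.6% in T2 replicates 1, 2 and 3, and 4.4%, 16.8% and 20.2% in T1 replicates 1, 2 and 3. Among peaks ranked 1001 to 2000 it was 10.4%, 24.2% and 25.3% in T2, and 25.5%, 44.5% and 50.2% in T1. In every list the strongest 500 peaks were the least often near a gene. At the equal length of 2605 peaks the shares were 9.25%, 21.0% and 20.4% in T2 and 19.7%, 38.6% and 43.5% in T1, each within 3 points of the full list.

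**Figure D2:**
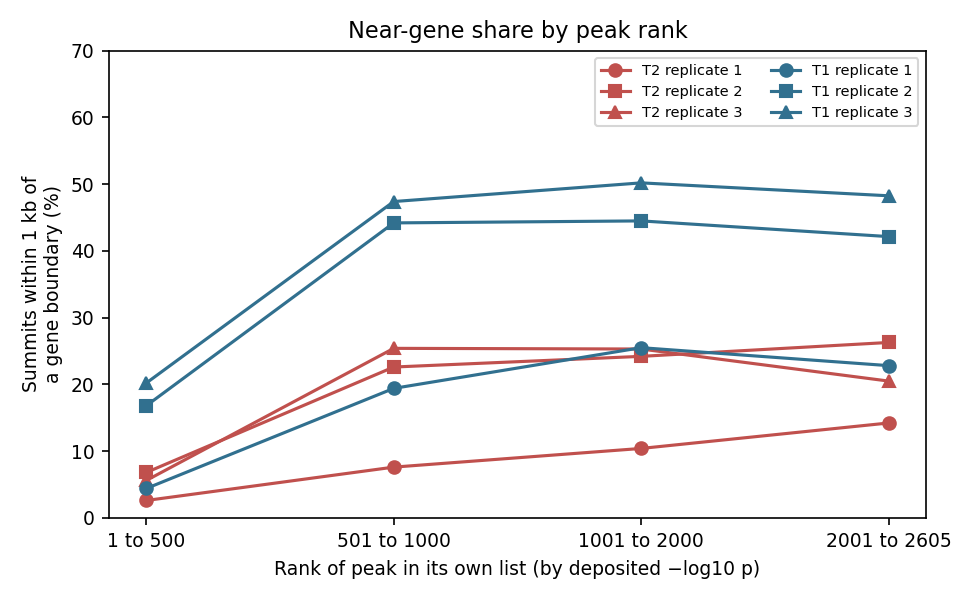
Share of summits within 1 kb of a gene boundary, in percent, for peaks ranked 1 to 500, 501 to 1000, 1001 to 2000 and 2001 to 2605 by the deposited −log10 p in each of the 3 T2 and 3 T1 Bcl11a lists. T1 replicates 2 and 3 run highest at every rank, T2 replicate 1 runs lowest, and T1 replicate 1 runs with T2 replicates 2 and 3 from rank 1001 on.

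Spi1 lists of both groups had near-gene shares close together. They averaged 21.1 ± 2.91% in T2 and 21.2 ± 3.29% in T1 (SD, n = 3 each), a difference of -0.144 percentage points. For Bcl11a the difference was -16.1 points. The difference between both differences was -15.9 points and did not pass the test (exact permutation of the T labels within each factor, 400 labelings, two-sided, p = 0.165). At equal length it was -16.5 points (exact permutation p = 0.225), and without T1 replicates 2 and 3 of Bcl11a it was -3.31 points (exact permutation p = 0.8).

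Peaks of the 6 lists that shared at least 1 bp were merged into 12788 regions. Of these, 71 (0.555%) were in all 3 T2 and no T1 lists, 441 (3.45%) were in all 3 T1 and no T2 lists, and 877 (6.86%) were in all 6. Regions of a single list were far more frequent, with 2229 in 1 T2 list and no T1 list and 4206 in 1 T1 list and no T2 list. The excess of T1-only over T2-only regions shrank when all lists had 2605 peaks, to 113 (1.67%) T2-only and 145 (2.15%) T1-only of 6758 regions, with 602 (8.91%) in all 6. Of the T2-only regions, 48 were in that set both at full and at equal length, which is 48 of 71 and 48 of 113, and 111 of the T1-only regions were in both, of 441 and 145.

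**Figure D3:**
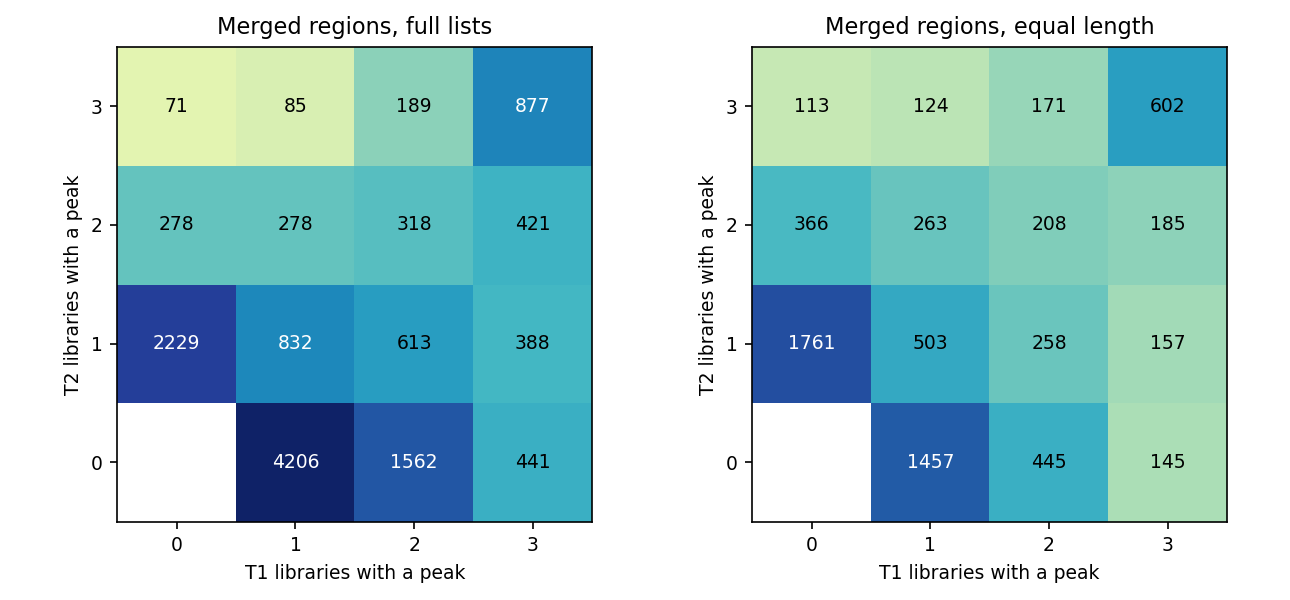
Number of merged Bcl11a regions by how many of the 3 T2 lists (vertical) and how many of the 3 T1 lists (horizontal) had a peak, for the full lists and for lists of 2605 peaks. The full lists give 71 regions in the T2-only corner and 441 in the T1-only corner, and lists of equal length give 113 and 145.

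With T1 replicates 2 and 3 left out, so that T1 was 1 library, 210 of 8074 regions (2.6%) were in all 3 T2 lists and not in T1 replicate 1, 1459 (18.1%) were in T1 replicate 1 and no T2 list, and 1012 (12.5%) were in all 4 lists. At equal length these were 200 (3.66%), 748 (13.7%) and 811 (14.8%) of 5467. With T2 replicate 1 left out as well, they were 394 (6.33%), 2042 (32.8%) and 1162 (18.7%) of 6226. The T1-only rule then asks for 1 list and the T2-only rule for 3 or 2, so these counts do not compare. Each library was also set against the other trio. T2 replicates 1, 2 and 3 held 1732, 530 and 766 regions absent from all T1 lists, and T1 replicates 1, 2 and 3 held 1459, 3026 and 4250 absent from all T2 lists. At 2605 peaks per list these counts were 978, 971 and 902 for T2 and 748, 1004 and 1044 for T1, and the groups overlapped. The near-gene share of these regions at equal length was 3.89%, 13.8% and 12.9% in T2, and 24.6%, 54.0% and 58.7% in T1. The T2 values are for regions absent from T1 replicates 2 and 3, the lists richest in near-gene peaks, so they were low by that choice and the order of the groups here is no separate result.

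In the full set of 6 lists, the T2-only regions were mostly far from genes and the T1-only regions mostly at them. Of the T2-only regions 4.23% lay within 1 kb of a gene boundary, against 52.2% of the T1-only regions, 17.4% of those in all 6 lists and 28.6% of every region. Without T1 replicates 2 and 3 the gap was much smaller, with 16.7% of 210 T2-only and 25.8% of 1459 T1-only regions near a gene, and 12.5% of 200 and 24.6% of 748 at equal length. The T1-only rule then asks for 1 list in place of 3. With all 6 full lists, the median distances to a gene boundary were 21430 bp for the 71 T2-only regions, 887 bp for the 441 T1-only regions and 16992 bp for the 877 shared regions. Among the 3659 regions near a gene, 3 (0.082%) were T2-only and 230 (6.29%) T1-only. The 3 lay at Cers4, Pgghg and Cxxc5, genes picked out here after their values were seen. Among the 9129 regions farther away, 68 (0.745%) were T2-only and 211 (2.31%) T1-only. At equal length the far regions went the other way, with 106 of 5010 (2.12%) T2-only and 65 (1.3%) T1-only. The near regions still held 7 of 1748 (0.4%) T2-only and 80 (4.58%) T1-only. Among lists cut to the same number of peaks, one with more near-gene peaks holds fewer far ones. The order among far regions is thus not separate from the near-gene shares. T2-only regions also had to be absent from T1 replicates 2 and 3 and present in T2 replicate 1, the list with the lowest near-gene share. Both rules favour a low near-gene share, and the part of each was not tested.

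One-sided regions were of middling rank. The T2-only regions had median percentiles of 58.2, 49.8 and 57.8 in T2 replicates 1, 2 and 3, and the highest reached 89.8. The T1-only regions had medians of 38.7, 63.5 and 67.4 in T1 replicates 1, 2 and 3. Regions in all 6 lists had medians between 78.7 and 90.9. The T1-only regions thus ranked lower within T1 replicate 1 than within the other T1 lists.

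Lists of the same group were more alike on average than lists of different groups. The Jaccard index, the covered bases that both lists share over all bases that either covers, averaged 0.303 ± 0.0370 within T2 and 0.319 ± 0.0656 within T1 (SD, 3 pairs each), against 0.238 ± 0.0439 between the groups (SD, 9 pairs). The excess within groups was 0.0734 (exact permutation of the labels, one-sided, p = 0.1, the smallest this design allows). Replicate 1 of each group departed from this. T2 replicate 1 had an index of 0.275 and 0.290 with the other T2 lists and 0.305 with T1 replicate 1. T1 replicate 1 had 0.306 with T1 replicate 2 and 0.261 with T1 replicate 3, set beside 0.305, 0.275 and 0.293 with T2 replicates 1, 2 and 3. T1 replicates 2 and 3 were the most alike pair, at 0.390. Without them, the excess was 0.0121 (exact permutation p = 0.5).

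Each library also held regions of its own. T2 replicate 1 alone held 1450 regions, of which 2.97% were near a gene. T2 replicates 2 and 3 held 294 and 485 of their own, with 8.50% and 7.42% near a gene. T1 replicate 1 held 692 with 7.51%, while T1 replicates 2 and 3 held 1161 and 2353 with 39.4% and 45.2%. A further 1273 regions were in T1 replicates 2 and 3 and in no other list, with 59.6% near a gene, and 223 were in T2 replicate 1 and T1 replicate 1 alone, with 0.897% near a gene.

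The strongest T2-only regions lay by genes of mixed function. Of those named here, only the Pgghg region, 560 bp from the boundary, lay within 1 kb of a gene boundary. The first in rank was chr4:125176591-125177857, 49177 bp from Zc3h12a, an RNase that degrades inflammatory transcripts, at percentiles 89.8, 88.9 and 87.4 in T2 replicates 1, 2 and 3. It had a Spi1 peak in 2 of 3 Spi1 T2 lists and 0 of 3 Spi1 T1 lists. The next, chr1:16592824-16593534 inside Ube2w, a ubiquitin-conjugating enzyme, stood at 89.8, 84.6 and 80.6. A region inside Inpp5d, a phosphatase that limits inositol lipid signals in blood cells, chr1:87640150-87640748, stood at 81.7, 74.6 and 82.5, with Spi1 peaks in 3 of 3 Spi1 T2 and 0 of 3 Spi1 T1 lists. The same gene also held a T1-only region, chr1:87650608-87651056, at percentiles 69.3, 39.4 and 67.3 in T1 replicates 1, 2 and 3. Another at chr7:143042790-143043223 lay 9671 bp from Cd81, a tetraspanin of the cell surface, and had no Spi1 peak in any of these lists. A further region lay 117238 bp from Eya1, a phosphatase and transcription coactivator. Regions also lay inside Pgghg, a glycosidase of collagen sugars, Sema4b, a membrane semaphorin, and Papss1, which makes the sulfate donor of the cell. The rest were inside Ccdc102a and Vps13d, a lipid transfer protein. Papss1 also had a T1-only region, 99 bp from its boundary.

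Promoters made up much of the strongest T1-only set. Regions at Actr3, Ilvbl, Trim41 and Pcbp2, whose promoters are printed above, and at Fem1c, a substrate receptor of a ubiquitin ligase, lay within 1 kb of the gene boundary. The Actr3 region stood at percentiles 81.8, 92.0 and 89.4 in T1 replicates 1, 2 and 3, and the Pcbp2 region at 77.6, 82.4 and 95.1. Actr3 had a Spi1 peak in 3 of 3 Spi1 T2 and 3 of 3 Spi1 T1 lists, and Pcbp2 in none. Far from promoters, chr1:128614318-128615557 lay 22703 bp from Cxcr4, the chemokine receptor that holds progenitors in the marrow, at 76.3, 88.8 and 89.4. Another, chr2:128008673-128009405, lay inside Acoxl and 117012 bp from Bcl2l11, which encodes the death-promoting protein Bim, at 82.3, 91.0 and 90.1. The remaining regions were inside Selp, the P-selectin gene of platelets and endothelium, 66279 bp from Anxa3, an annexin, and 132947 bp from Uaca.

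The strongest regions in all 6 lists were not at genes. The 6 of highest rank lay 1035214 bp from Lrrc4c, 29499 bp from Rpusd4, 124250 bp from Fgf14, 137463 bp from Rab10, 116400 bp from Gm2244 and 17145 bp from Mrgprd. Each had a Spi1 peak in 6 of 6 Spi1 lists of WT-iMOS cells. The Lrrc4c region was the top peak of every Bcl11a list. No mask of blacklisted regions was applied, and the part of such regions in the shared set was not tested.

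Spi1 peaks were found at most regions of every set. Of the T2-only regions 52 of 71 (73.2%) had a Spi1 peak in at least 1 of the 6 Spi1 lists, as did 375 of 441 T1-only regions (85.0%), 855 of 877 regions in all 6 lists (97.5%) and 64.0% of every region. At the T2-only Bcl11a regions, Spi1 peaks were in 56.3%, 39.4% and 36.6% of regions by the Spi1 T2 lists and in 35.2%, 15.5% and 31.0% by the Spi1 T1 lists. Each Spi1 T2 list was above each Spi1 T1 list there, by a narrow margin. At equal length of the Bcl11a lists the shares were 70.8%, 52.2% and 45.1% by the Spi1 T2 lists and 51.3%, 31.0% and 35.4% by the Spi1 T1 lists, and the groups overlapped. They also overlapped without Bcl11a T1 replicates 2 and 3, where the lowest Spi1 T2 list had 41.9% and the highest Spi1 T1 list 45.2%. At the T1-only Bcl11a regions the shares were 66.4%, 42.6% and 31.97% by the Spi1 T2 lists and 73.9%, 57.1% and 48.3% by the Spi1 T1 lists, and the groups overlapped. The regions in all 6 lists had a Spi1 peak in 86.7 ± 5.54% by T2 and 88.3 ± 3.97% by T1 lists (SD, n = 3 each).

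Spi1 libraries differ in length, with the shortest at 4926 peaks, so each was also read against itself. The share at T2-only regions minus the share at T1-only regions was -10.1, -3.19 and 4.65 percentage points in the Spi1 T2 lists and -38.7, -41.6 and -17.3 in the Spi1 T1 lists. No Spi1 T2 list overlapped the Spi1 T1 range. The means were -2.88 ± 7.38 and -32.6 ± 13.3 points (SD, n = 3 each), and they differed by 29.7 points (exact permutation p = 0.1, two-sided, the smallest possible). Spi1 peaks, a readout the choice of regions did not use, thus leaned the same way as Bcl11a. The difference was 31.8 points with Bcl11a lists of equal length, 30.7 points for regions beyond 1 kb of a gene boundary, 26.1 points without Bcl11a T1 replicates 2 and 3 and 19.7 points with Spi1 lists of equal length, each without overlap. It was 17.2 points without Bcl11a T1 replicate 1 and 18.4 points without Bcl11a T2 replicate 2, where the groups overlapped (exact permutation p = 0.2 in both). This difference was computed after the other results had been seen. The labels do not say whether the Spi1 and Bcl11a libraries came from the same cells.

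**Figure D4:**
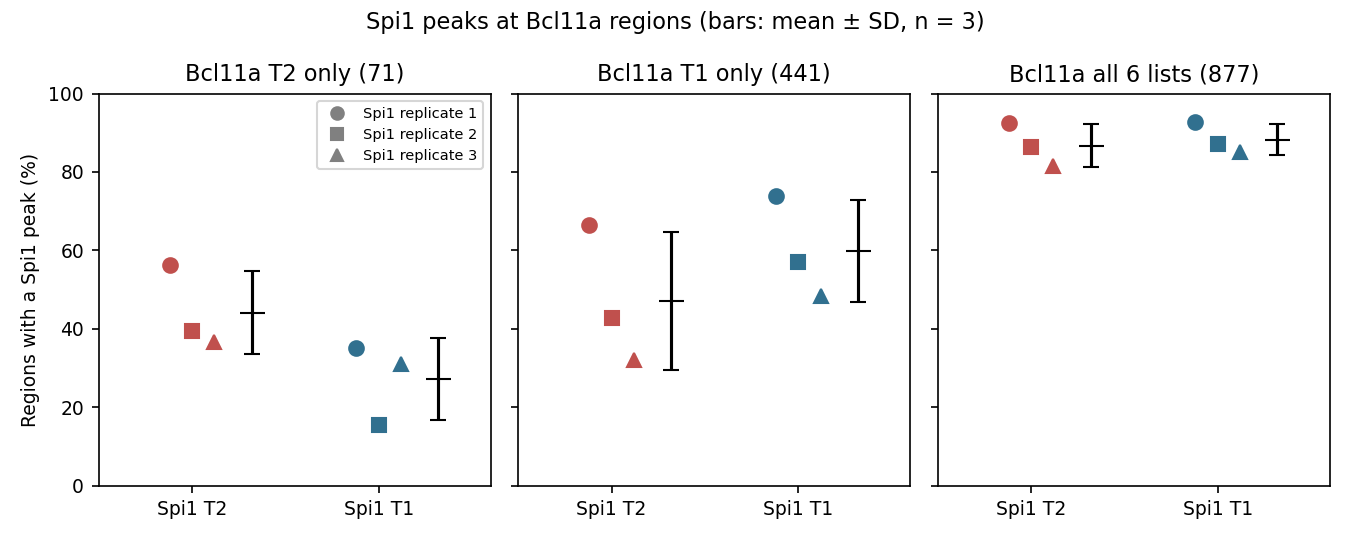
Share of Bcl11a regions with a Spi1 peak, in percent, in each of the 3 Spi1 T2 and 3 Spi1 T1 lists, for the 71 T2-only, 441 T1-only and 877 shared Bcl11a regions, with bars for the mean ± SD. At the T2-only regions the Spi1 T2 lists (36.6% to 56.3%) stand above the Spi1 T1 lists (15.5% to 35.2%), and at the shared regions they lie together.

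At gene loci, taken as each gene plus 10 kb beyond both ends, the T1 lists reached more genes. Of 21883 protein-coding genes, 12.4%, 9.25% and 10.8% had a Bcl11a peak in T2 replicates 1, 2 and 3, and 14.0%, 24.2% and 29.8% in T1 replicates 1, 2 and 3. At 2605 peaks a list the shares were 7.36%, 9.25% and 9.17% in T2 and 8.94%, 11.9% and 12.4% in T1, and the groups overlapped. A peak in all 3 T2 and no T1 lists was found at 24 genes (0.11%), one in all 3 T1 and no T2 lists at 477 genes (2.18%), and one in all 6 at 771 genes (3.52%). At equal length these were 60 (0.274%), 153 (0.699%) and 469 (2.14%), and without T1 replicates 2 and 3 they were 171 (0.781%), 916 (4.19%) and 843 (3.85%). When a summit had to lie within 1 kb of a gene boundary, 2 genes were T2-only (0.00914%), Cxxc5 and Cers4, both of which had a peak elsewhere at the locus in 3 of 3 T1 lists, 277 were T1-only (1.27%) and 171 were in all 6 lists (0.781%).

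Bcl11a itself was among the 24 T2-only genes. Its region, chr11:24077529-24077986, lay inside the gene, 1042 bp from the boundary at 24076564, and had percentiles of 53.0, 36.8 and 71.0 in T2 replicates 1, 2 and 3. No T1 list had a peak at the locus. Spi1 had a peak at this region in 2 of 3 Spi1 T2 and 0 of 3 Spi1 T1 lists. The other T2-only genes included Jag2, a Notch ligand, Dok2, an adaptor that dampens kinase signals in myeloid cells, Ifitm2, an interferon-induced membrane protein, Adgrg5, an adhesion receptor, Pdzk1ip1, a small membrane protein, Polr2e, an RNA polymerase subunit, and Rpn1, a subunit of the glycosylation machinery, named here after the values were seen. The T2-only region inside Pgghg, named above, lay within 10 kb of Ifitm2, and the one inside Ccdc102a within 10 kb of Adgrg5. A T2-only region nearest to Arhgap45, chr10:80033014-80033370, lay within 10 kb of Polr2e. A T2-only gene thus need not have a region of its own. At equal length 12 of the 24 T2-only genes had a peak in 3 of 3 T2 lists.

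Among the 13 lists of genes read, with 332 genes found, Bcl11a was the sole T2-only gene, and 5 lists had every T1 library above every T2 library, as did all genes together. These 5 were the granulocyte and monocyte, cell cycle, ribosome, splicing and chromatin lists. The clearest was the list of splicing and RNA-binding genes. Of its 24 genes, 5, 5 and 6 had a peak in T2 replicates 1, 2 and 3, and 11, 15 and 17 in T1 replicates 1, 2 and 3. The mean shares were 22.2% in T2 and 59.7% in T1, beside 10.8% and 22.7% over all genes. Divided by the all-gene value of each replicate, the shares were 1.68, 2.25 and 2.30 in T2 and 3.27, 2.59 and 2.37 in T1. T1 replicates 2 and 3 were thus little above T2 replicates 2 and 3, and part of the gap was the general T1 excess. At equal length the counts were 2, 5 and 3 in T2 and 8, 8 and 9 in T1, so this list stayed apart when all genes overlapped, with T1 replicate 1 on the T1 side. Srsf7 and U2af2, which help define splice sites, had peaks in 0 of 3 T2 lists and 3 of 3 T1 lists in the full lists, within 1 kb of the gene boundary. At equal length each had a peak in 1 T1 list, and no gene of the splicing list was T1-only. The U2af2 region stood at percentiles 64.6, 25.2 and 38.5 in T1 replicates 1, 2 and 3. Hnrnpa1 and Srsf2, of the same machinery, had peaks in all 6 lists.

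Chromatin and corepressor genes numbered 28, with peaks at 7, 6 and 10 in T2 and at 12, 15 and 21 in T1 (replicates 1, 2 and 3). The mean shares were 27.4% in T2 and 57.1% in T1, beside 10.8% and 22.7% over all genes, so the list differed between the groups in about the same proportion as all genes. Sin3a, a corepressor scaffold, and Dnmt1, the maintenance DNA methyltransferase, were T1-only through regions inside the genes, 4069 and 7122 bp from a boundary. Chd4, the NuRD remodeller, had peaks in all 6 lists through a region 7121 bp outside the gene. At equal length the counts of the whole list were 4, 6 and 10 in T2 and 7, 11 and 9 in T1, and they overlapped.

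For the 26 genes of cell cycle and survival the counts were 5, 5 and 6 in T2 and 7, 17 and 16 in T1, with mean shares of 20.5% and 51.3% beside 10.8% and 22.7% over all genes. At equal length the counts were 3, 5 and 5 in T2 and 5, 11 and 12 in T1, and the groups overlapped. Mki67, the proliferation antigen, was T1-only by a region 126 bp from the gene boundary, at percentiles 53.0, 61.8 and 83.0. Cdk6, a kinase of early cell cycle, had peaks in all 6 lists. The 24 ribosome and translation genes had counts of 2, 4 and 5 in T2 and 6, 11 and 12 in T1, with mean shares of 15.3% and 40.3%. At equal length the counts were 1, 4 and 4 in T2 and 3, 7 and 6 in T1, and the groups overlapped. Rplp0, a ribosomal stalk protein, was T1-only with weak peaks at percentiles 1.86, 10.6 and 3.29, and had no peak in any list at equal length. Rps18 and Eef2 had peaks at the locus in all 6 lists, with the Rps18 region 8422 bp outside the gene. The leading Eef2 region lay 7221 bp outside the gene and was in 2 T2 and 3 T1 lists. For the cell cycle and the ribosome genes, T1 replicate 1 lay nearest to the T2 counts in the full lists.

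Granulocyte and monocyte genes, the lineage towards which MPP3 cells lean, had no gene on one side only. Over all genes 0.11% were T2-only and 2.18% T1-only, so none of 36 genes is no result about this list. Peaks were at 7, 6 and 6 of 36 genes in T2 and at 9, 11 and 19 in T1, and 5 genes had them in all 6 lists, among them the cytokine receptors Csf1r and Csf2ra. The mean shares were 17.6% in T2 and 36.1% in T1, beside 10.8% and 22.7% over all genes. Divided by the all-gene value of each replicate, the shares were 1.56, 1.80 and 1.54 in T2 and 1.79, 1.26 and 1.77 in T1. These ratios overlapped. At equal length the counts were 7, 6 and 6 in T2 and 8, 7 and 11 in T1, and the groups overlapped. Spi1, the factor of that lineage, had a Bcl11a peak at its locus in 3 of 3 T2 and 3 of 3 T1 lists. Its leading region, chr2:91082587-91083859, was in 2 T2 and 3 T1 lists.

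Lymphoid genes were the one list of the 13 read with T2 above T1 in every library at equal length, and no test was run over the lists. The counts of 34 genes were then 7, 5 and 7 in T2 and 4, 4 and 3 in T1, while the full lists gave 10, 5 and 9 in T2 and 6, 14 and 13 in T1. As shares at equal length these were 20.6%, 14.7% and 20.6% in T2 and 11.8%, 11.8% and 8.82% in T1. Over all genes they were 7.36%, 9.25% and 9.17% in T2 and 8.94%, 11.9% and 12.4% in T1. Bcl11a, Id3, an inhibitor of E proteins, and Foxo1, a forkhead factor of early B cells, carried this difference, and the last 2 were named after their values were seen. At equal length Id3 had peaks in 3 T2 and 0 T1 lists and Foxo1 in 2 T2 and 0 T1 lists. In the full lists both had peaks in 3 T2 lists and in 1 T1 list. Ikzf1, the Ikaros gene, was T1-only in the full lists, through different regions in different libraries. Notch1 and Bach2, a repressor needed by B and T cells, had peaks in all 6 lists.

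**Figure D5:**
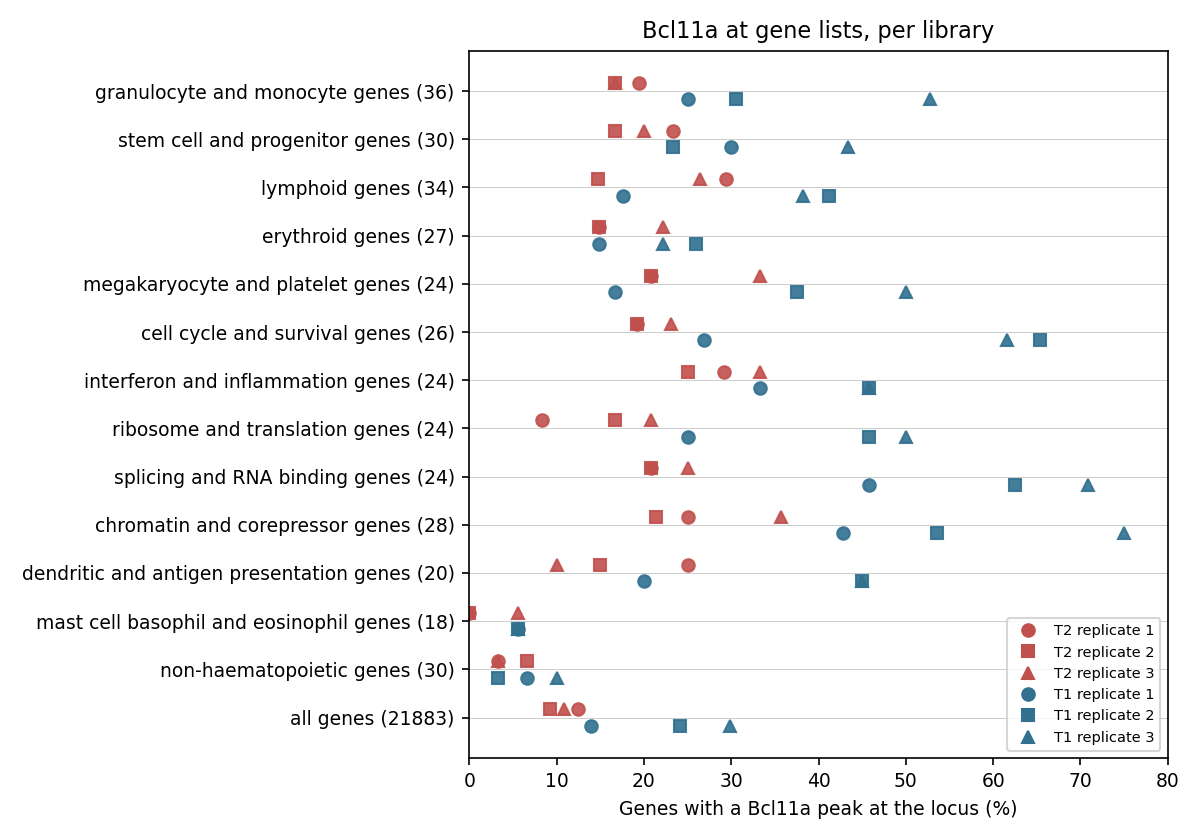
Share of the genes of each list with a Bcl11a peak at the locus, in percent, in the 3 T2 and 3 T1 full lists, with the number of genes in parentheses and equal values drawn over each other. In the splicing list T1 replicates lie at 45.8%, 62.5% and 70.8% and T2 replicates at 20.8%, 20.8% and 25%, and all genes lie between 9.25% and 29.8%.

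The remaining lists held 0 to 2 one-sided genes each, to be read beside the 0.11% of all genes that were T2-only and the 2.18% that were T1-only. Of 30 stem cell and progenitor genes 1 was T1-only, Fli1, an ETS factor also in the megakaryocyte list, by a region 33548 bp from the gene boundary at percentiles 61.2, 65.1 and 87.7, and Runx1 had peaks in all 6 lists. Fli1 and Selp were the T1-only genes among 24 of the megakaryocyte list, in which Nfe2 and Zfpm1 had peaks in all 6. Interferon and inflammation genes numbered 24, with peaks at 7, 6 and 8 in T2 and at 8, 11 and 11 in T1. At equal length they had 6, 6 and 6 in T2 and 7, 9 and 9 in T1, without overlap. As shares these were 25% in each T2 list and 29.2%, 37.5% and 37.5% in T1. Over all genes they were 7.36%, 9.25% and 9.17% in T2 and 8.94%, 11.9% and 12.4% in T1, also highest in T1 replicates 2 and 3. In the full lists, the shares divided by the all-gene value were 2.35, 2.70 and 3.07 in T2 and 2.38, 1.90 and 1.54 in T1. Nfkb2 was T1-only in the interferon list, where both chains of the interferon gamma receptor, Ifngr1 and Ifngr2, had peaks in all 6. Cd74, the invariant chain, and Xcr1, a dendritic cell chemokine receptor, were T1-only among 20 dendritic and antigen presentation genes. Erythroid genes, 27 in number, had none on one side and Ank1 and Nfe2 among those in all 6. The 18 genes of mast cells, basophils and eosinophils had at most 1 gene with a peak in any list, and the 30 non-haematopoietic genes had 1 to 3, with Lepr in all 6 lists.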

How the data were processed

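CUT&Tag libraries were made from sorted MPP3 cells with a commercial kit (Hyperactive Universal CUT&Tag Assay Kit, Vazyme), per the labels' protocols. Groups were taken from the titles and the genotype label, replicate numbers from the titles. The authors deposited a narrowPeak list per library, and each library has its own peaks. Bowtie2, SAMtools, MACS2 and mm10 are named without versions in the submitters' processing notes, and whether a control entered the calling is not given in those notes or the labels. The deposited columns hold an integer score, a fold enrichment ratio, a −log10 p-value and a −log10 q-value, all from the authors. The −log10 q was at least 2.00014 in every Bcl11a list. The −log10 p only ranked peaks within a list, and the −log10 q filtered them. Depth is unknown without reads, and the number of peaks sets the precision of each share.

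Scripts ran in Python 3.11.15 (pandas 2.3.3, numpy 2.4.6, matplotlib 3.10.9, scipy 1.17.1). Peaks on assembled chromosomes were used, without a filter for regions of artefact signal. Genes were the 21883 protein-coding genes of a RefSeq table on GRCm38.p6. That table gives no strand, so either gene boundary counts as near. Promoter windows came from a RefSeq table (chromosome 18 not used here). A merged region joined peaks of the 6 lists sharing at least 1 bp. The 6 labels were permuted exactly to compare libraries (two-sided, doubling the smaller tail), with Benjamini-Hochberg adjustment over 6 measures. The merging and the tests were tested on simulated data. Pairs of the 6 lists had up to 34 intervals in common exactly, so no list repeats another.

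Regions were named by rank, the 10 T2-only and the 10 T1-only regions and the 6 shared regions of highest mean percentile. Genes were named from 13 lists, up to 4 on each side and up to 2 in all 6 lists, besides Bcl11a and Spi1. Some genes that this rule names are not reported here. Promoters were printed for the strongest regions of each set lying over the 250 bases upstream of a start. Duxf3, of a family with near-identical copies, and genes on chromosome 18 were passed over. The comparison, its gene lists and its measures were chosen with earlier results of these data known. Alternatives tried were a stricter filter of −log10 q over 5, unplaced contigs included, lists of equal length, peak centres, distances of 3 kb, an overlap of 100 bp, summits with 100 bp on either side, each library left out and a replicate block. Distances to transcription starts, the exclusion of T2 replicate 1 together with T1 replicates 2 and 3, equal length without T1 replicates 2 and 3, and the whole Spi1 contrast between T2-only and T1-only regions were added after seeing the data.

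Same-numbered libraries were not paired by the labels. Their deviations from the group means over regions correlated at 0.164, 0.0100 and 0.0432 for replicates 1, 2 and 3, not above 0.1 in every pair.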

Additional observations from a re-analysis of the deposited data

Results flagged for a closer look

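Peaks outside the assembled chromosomes, on unplaced contigs and mitochondrial DNA, entered the comparison of peak numbers only as an alternative, with a mean of 3597 peaks in T2 and 5882 in T1 (difference -2285, exact permutation p = 0.2), and no comparison of regions or genes. There were 152, 114 and 119 in T2 replicates 1, 2 and 3 and 150, 119 and 112 in T1 replicates 1, 2 and 3, so each list held a signal in data left out above. The counts of both groups lay in the same range, while the lists themselves differed in length.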

How the results depend on the processing

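T2 minus T1 is given throughout. Without T1 replicates 2 and 3 the differences shrank to -681 peaks, -0.347 Mb, -7 bp in median width, -3.45 points near genes, -1.12 points inside genes and 3875 bp in distance. Also without T2 replicate 1, the width reversed to 4.5 bp, near genes was -0.119 points, inside genes -0.404 points and distance 618 bp. T2-only regions numbered 71, and 210, 394 and 113 without T1 replicates 2 and 3, also without T2 replicate 1, and at equal length (200 at equal length without T1 replicates 2 and 3). T1-only regions numbered 441, and 1459, 2042, 145 and 748 in that order. T2-only genes numbered 24, and 171, 322 and 60 under the first 3 of these, and 2 within 1 kb of a boundary, namely Cxxc5 and Cers4. T1-only genes numbered 477, and 916, 1234, 153 and 277. Leaving out each library gave -3089 to -1529 peaks, -1.52 to -0.752 Mb, -36.5 to -15.2 bp, -22.4 to -12.4 points near genes, -8.21 to -4.23 points inside genes, 8190 to 15232 bp in distance, 89 to 197 T2-only and 538 to 1713 T1-only regions, and 37 to 63 T2-only and 540 to 1815 T1-only genes, with both T1-only maxima without T1 replicate 1. A rule over fewer lists is looser by construction. The cause of the other changes was not tested. The signs of the 6 measures held under each other alternative run, and so did those of the Jaccard excess and of both Spi1 contrasts.

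Replicate numbers did not pair the libraries in every case. With a replicate block the differences were the same by construction, near genes -16.1 points (exact sign-flip permutation p = 0.25, the smallest possible), and p was 0.5 for number and covered length. T2 replicate 2 correlated best with T1 replicate 3, at 0.110. T2 replicates 1 and 3 correlated best with the T1 library of the same number, at 0.164 and 0.0432.

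Depth is unknown, so list length cannot be told apart from sequencing depth, and 3 libraries a group limit every test.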
